A study of Rattus norvegicus with 8 samples.

Results

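Amacrine cells are the inhibitory interneurons of the inner retina, and 10 genes that set their transmitters and their identity are described here across rat retinas with and without optic nerve crush. The 10 genes were taken by name: every spot of the arrays that is not a control and whose gene name is Gad1, Gad2, Slc32a1, Slc6a9, Chat, Th, Calb2, Pax6, Tfap2a or Tfap2b. They are 10 of 26334 gene names on the array, and they were read by 12 probes with a single spot each.

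Amacrine cells shape the signal that bipolar cells pass to retinal ganglion cells (RGCs), mostly by releasing GABA or glycine onto their neighbors. Smaller populations add acetylcholine, as the starburst cells that give direction selectivity do, or dopamine, which adapts the retina to light. Their axons, where they have any, do not leave the eye, so a crush of the optic nerve injures the axons of RGCs and not those of amacrine cells.

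The retinas came from 8-week-old female Lister Hooded rats under xylazine (10 mg/kg) and ketamine (60 mg/kg). In the ONC group, the right optic nerve was held in closed forceps 3 mm behind the disc for 10 s, and in the CTR group the same surgery was done without closing the forceps. Whole retinas were taken 2 weeks later, 4 per group, and each was profiled on its own. The 8 RNA samples were hybridized in pairs onto 4 arrays with 2 colors, all on 1 slide.

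By the labels, every array pairs a CTR retina in Cy5 with the like-numbered ONC retina in Cy3, and an effect of the crush cannot be separated from one of the dye. The methods of the study describe another layout, with retinas of the same group sharing an array. The channels are therefore called by their labels throughout. RGC markers went against those labels: the median of 11 markers, each relative to its own mean over the channels, was 1.15, 1.15 and 1.36 on the log2 scale in the channels labeled ONC1, ONC2 and ONC3 and -1.17 in ONC4. It was 1.15 in the channel labeled CTR2 and -1.44, -1.02 and -0.95 in CTR1, CTR3 and CTR4. The sign of this marker difference by label is opposite to the direction the study gives for RGC markers after crush. A difference below is thus one between labels.

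All 12 probes gave a signal over background, and 11 were used, since 1 of the Gad1 probes carried an outlier flag. The scanner software marked each of the 12 as well above background in all 8 channels, none was saturated, and every foreground was over 2 times its local background, the minimum used. The channels differed in depth: the share of spots well above background was 79.4%, 79.2%, 77.5% and 77.1% for CTR1 to CTR4, and for ONC1 to ONC4 it was 75.1%, 79.0%, 72.5% and 66.8%. Chat and 1 of the Gad1 probes came closest to the minimum. The Chat spot lay 2.79 to 5.85 times over its background and the Gad1 spot of probe A_44_P243102 lay 3.75 to 7.48 times over it. Among 153 negative control spots, whose median foreground was 61.6 to 74.1 intensity units, the brightest single spot exceeded Chat in ONC1, ONC3 and ONC4, this Gad1 probe in ONC3 and ONC4, and the dimmer Slc6a9 probe in ONC4. The median local background of these control spots was 54 to 57 units in channels labeled CTR and 26 to 29.5 in those labeled ONC. Folds over local background are thus not comparable between labels. Relative to the median foreground of the controls, Chat was under 2 times in ONC1, ONC3 and ONC4 and over 2 times in the other channels. This Gad1 probe was over 2 times in all 8 channels. None of the 10 genes was too dim by the filter, which uses local background only. Chat and Gad1 are the genes whose values stand nearest to it.

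**Figure D1:**
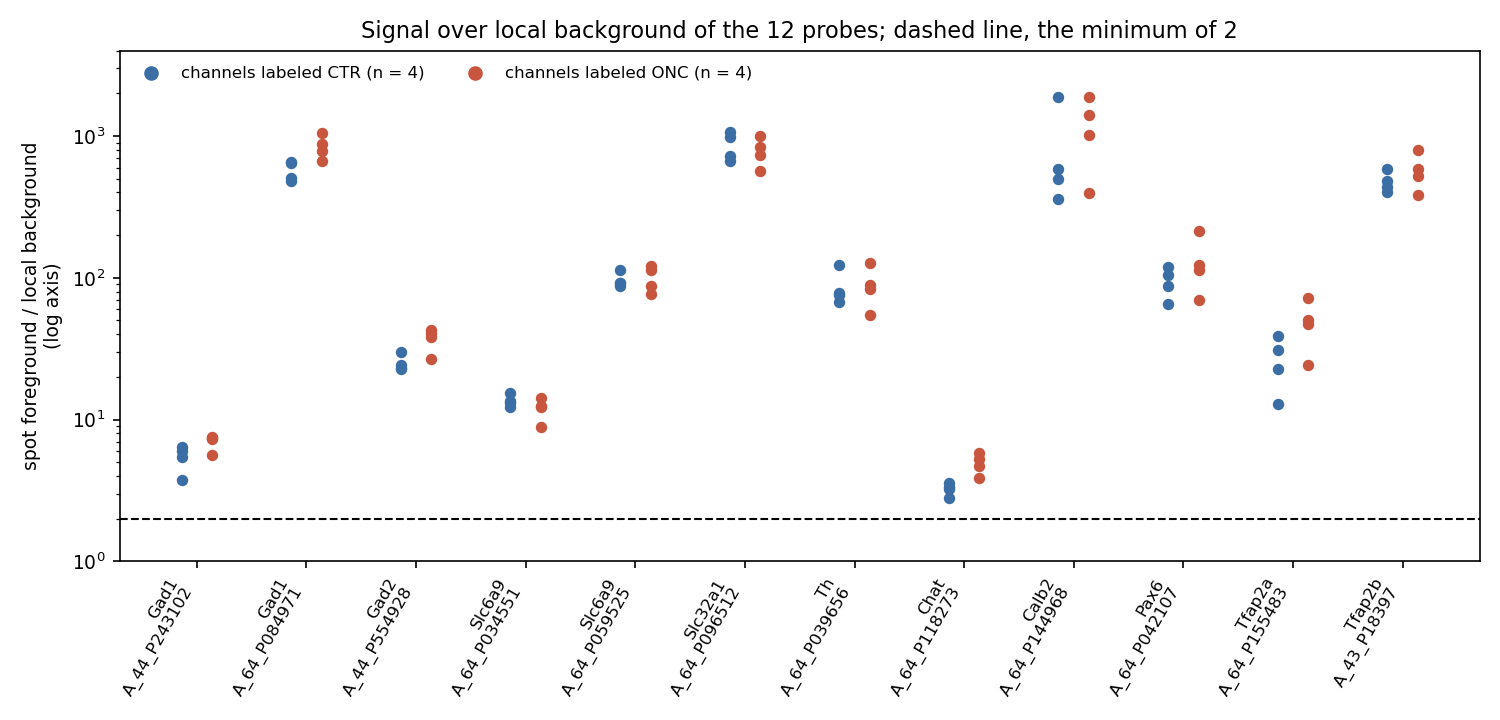
Spot foreground divided by local background (log axis) for the 12 probes of the 10 genes, with 1 point per channel, blue for channels labeled CTR and red for channels labeled ONC (n = 4 each). All points lie above the dashed line at 2, and those of Chat come down to 2.79.

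No gene of the 10 passed the unpaired test between label groups. Levels are log2 values relative to the median of each channel, and the test was limma over 16307 genes with an adjusted p under 0.05 as threshold. It called 0 of the 10 genes and 81 of all genes, which is 0.497%. At an unadjusted p under 0.05, 3 of the 10 (Gad2, Slc6a9 and Slc32a1) and 3025 of all genes, 18.6%, stood out. In 3 of the 10 (Slc6a9, Slc32a1 and Th), the 4 channels labeled ONC all lay below the 4 labeled CTR, and groups that do not overlap were found for 2069 of all genes, or 12.7%. With the replicate number, which the labels tie to the array, as a block, 1 of the 10 passed (Slc6a9) among 1254 genes, or 7.69%. A criterion after that of the methods, the methods' t-test joined to a fold threshold from the spread within groups but with folds of log2 means, was met by 0 of the 10 and by 504 of all genes, 3.09%.

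The 10 genes did not shift in 1 direction. The mean was higher in the channels labeled ONC for Gad2, Calb2, Pax6, Tfap2a and Tfap2b and lower for Gad1, Slc32a1, Slc6a9, Chat and Th. The median difference was 0.02 on the log2 scale, beside -0.01 for all genes, and it turned to -0.07 when the software's own processed signals were used. Without loess, with each channel only scaled to its median, it was 0.10, beside 0.07 for all genes. In size, the median difference was 0.25 for the 10 genes and 0.14 for all genes. A lower level in whole retina can come from fewer cells of a type or from less RNA per cell, and these arrays cannot tell the one from the other. Nor can they tell either from an effect of the dye, which follows the label on every array.

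**Figure D2:**
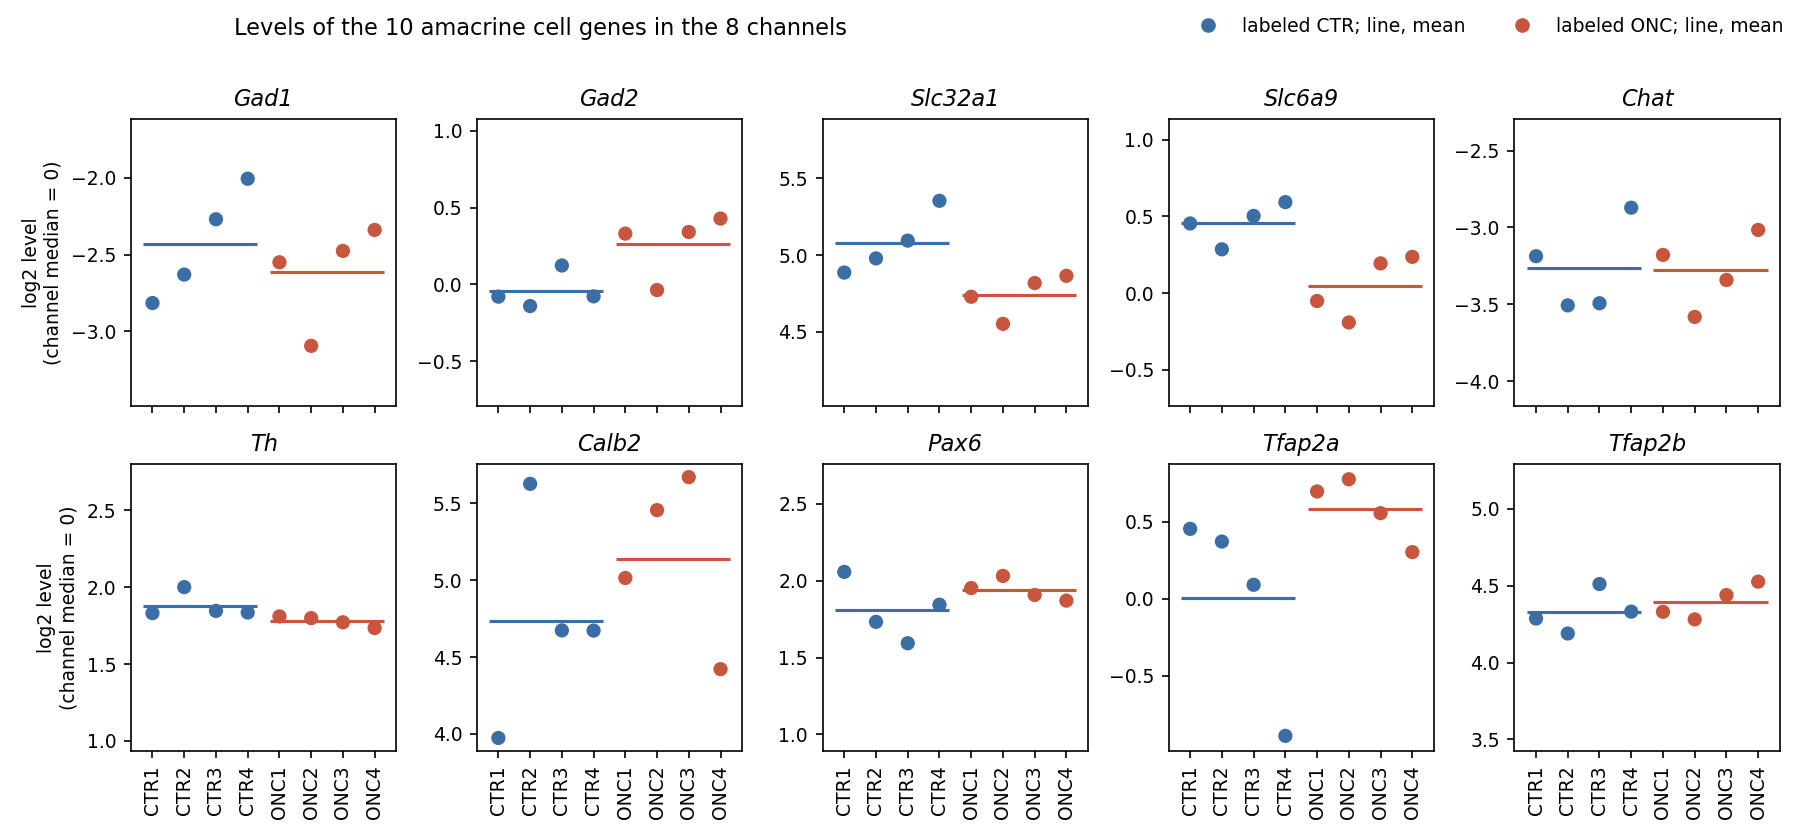
Log2 levels of the 10 genes (channel median = 0) in each of the 8 channels, with blue points labeled CTR, red points labeled ONC and lines for the means of 4 channels. The groups are apart in Slc32a1, Slc6a9 and Th only.

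Gad1, Gad2 and Slc32a1 make or pack GABA, the main transmitter of wide-field amacrine cells. The Gad genes encode the enzymes that make GABA from glutamate, and Slc32a1 encodes the transporter that loads GABA and glycine into synaptic vesicles. The 3 did not move together: Gad2 was 1.24-fold higher, and Slc32a1 1.26-fold and Gad1 1.14-fold lower, in the channels labeled ONC. The value of Gad1 is that of its dimmer probe, and its direction did not hold across its probes.

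The Slc32a1 levels were 4.89, 4.98, 5.09 and 5.35 (CTR1 to CTR4) and 4.73, 4.55, 4.82 and 4.86 (ONC1 to ONC4). All channels labeled ONC were lower than all labeled CTR, with CTR1 and ONC4 almost touching. The means were 5.08 ± 0.20 and 4.74 ± 0.14 (SD, n = 4 each). The difference was -0.34 (SE 0.12) and negative on 4 of 4 arrays, with an adjusted p of 0.182 from limma. It was -0.40 to -0.25 when channels were left out in turn. Without loess, with each channel only scaled to its median, the difference of Slc32a1 was -0.55 and passed, at an adjusted p of 0.0203 (0.0203 to 0.446 over the alternatives). That setting called 2 of the 10 genes (Slc32a1 and Slc6a9) and 3194 of all genes, 19.6%.

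The Gad2 levels were -0.08, -0.14, 0.12 and -0.08 (CTR1 to CTR4) and 0.33, -0.04, 0.34 and 0.43 (ONC1 to ONC4). ONC1, ONC3 and ONC4 were above all 4 labeled CTR, and ONC2 lay among the latter. The means were -0.04 ± 0.12 and 0.27 ± 0.21 (SD, n = 4 each), a difference of 0.31 (SE 0.12) that was positive on 4 of 4 arrays, with an adjusted p of 0.206. Leaving out ONC2 gave 0.41, and the other channels gave 0.26 to 0.37.

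Gad1 rests on its dimmer probe, because the other, A_64_P084971, carried an outlier flag in CTR1 and was left out. The levels of Gad1 were -2.81, -2.63, -2.27 and -2.01 (CTR1 to CTR4) and -2.55, -3.09, -2.48 and -2.34 (ONC1 to ONC4). ONC2 was the lowest of the 8 and CTR4 the highest, and the other channels overlapped. The difference was -0.18 (SE 0.21), with an adjusted p of 0.699. Without ONC2 it was -0.02, without CTR4 -0.04 and without CTR1 -0.31. When flagged spots were kept, the probes of Gad1 pointed in opposite directions: the dimmer gave -0.19 (SE 0.21) and A_64_P084971, 482.1 to 1057 times over background, gave 0.34 (SE 0.16), and their mean gave 0.07. No direction for Gad1 holds across its probes.

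The sequences of 60 bases printed on the array show what the values of Gad1 and Gad2 were read with. In the array design, on build rn4, the Gad1 probe A_44_P243102 lies at chr3:52813028-52813087 and the Gad2 probe at chr17:96321562-96321621, both on the plus strand. The capitals mark the longest run of G and C in each, or the first of them where runs of that length recur. Exon boundaries were not looked up, since no annotation of that build was used here.
Gad1 probe A_44_P243102: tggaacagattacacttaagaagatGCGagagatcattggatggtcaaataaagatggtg
Gad2 probe A_44_P554928: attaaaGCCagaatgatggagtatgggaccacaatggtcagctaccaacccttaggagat

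Other genes of GABA synthesis, packaging and uptake were followed as a list of 8, the 3 genes above among them. Of these, 7 passed the filter and 0 were called. Abat and Aldh5a1, which break GABA down, lay close together in both groups: -2.15 and -2.16 for Abat, and -0.42 and -0.39 for Aldh5a1. Without loess the difference of Abat was 0.21. The GABA transporter Slc6a11 did not pass the filter. The median difference of the 7 genes was 0.03, from -0.00918 without CTR2 to 0.08 without CTR4, and it was larger without loess.

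Slc6a9 encodes the glycine transporter GlyT1, which in retina marks glycinergic amacrine cells. It gave the lowest adjusted p of the 10 genes. The levels were 0.45, 0.29, 0.50 and 0.59 (CTR1 to CTR4) and -0.05, -0.19, 0.19 and 0.24 (ONC1 to ONC4). The 4 channels labeled ONC lay below the 4 labeled CTR, and CTR2 and ONC4 were the closest across groups. The means were 0.46 ± 0.13 and 0.05 ± 0.20 (SD, n = 4 each), 1.33-fold lower in the channels labeled ONC.

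The difference of Slc6a9 was -0.41 (SE 0.12), negative on 4 of 4 arrays, with an adjusted p of 0.121 from limma. With the replicate number as a block, the same difference had an adjusted p of 0.0334 and passed (0.0334 to 0.461 over the alternatives). Without loess it was -0.39, at 0.0474, and passed too. Leaving out channels in turn gave -0.47 to -0.33, with adjusted p of 0.109 to 0.297.

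Both Slc6a9 probes were lower in the channel labeled ONC on 4 of 4 arrays, but by different amounts. Probe A_64_P034551 gave -0.64 (SE 0.13) and its groups were apart. Probe A_64_P059525 gave -0.18 (SE 0.12), with levels of 1.93, 1.84, 1.93 and 1.93 (CTR1 to CTR4) and 1.68, 1.42, 1.90 and 1.92 (ONC1 to ONC4). For the latter, ONC1 and ONC2 were low, while ONC3 and ONC4 overlapped the channels labeled CTR. With only the brighter probe of each gene, the difference of Slc6a9 was -0.18 (adjusted p 0.445).

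The probe with the larger difference is shown because the Slc6a9 result leans on it. It lies at chr5:138333457-138333516 and the other at chr5:138334287-138334346, both on the plus strand of rn4, and the capitals again mark the longest run of G and C.
Slc6a9 probe A_64_P034551: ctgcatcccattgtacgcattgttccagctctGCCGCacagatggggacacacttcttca

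**Figure D3:**
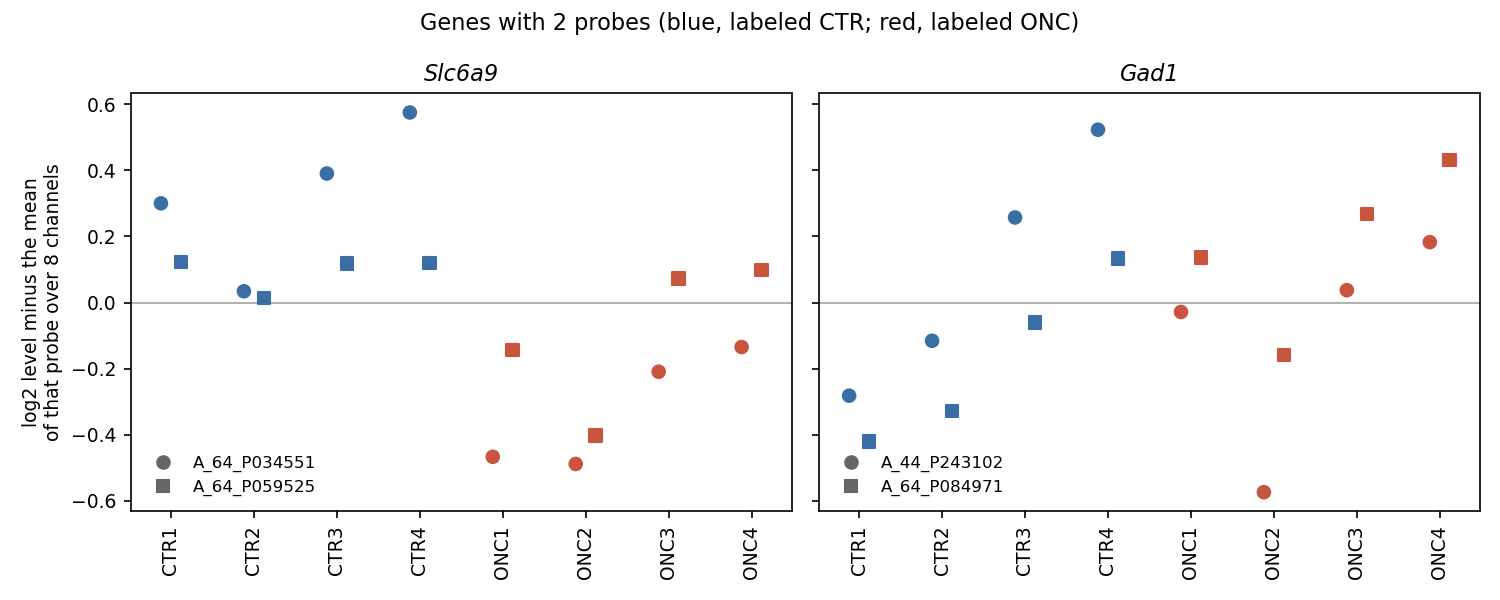
Log2 level minus the mean of each probe over 8 channels for the pairs of probes of Slc6a9 and Gad1, with flagged spots kept, blue points labeled CTR and red points labeled ONC. The Slc6a9 probes differ in how far ONC1 to ONC4 lie below CTR1 to CTR4, and the Gad1 probes differ in direction.

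The other glycine transporter on the list, Slc6a5 or GlyT2, did not pass the filter: in its dimmest channel it was 1.61 times its background, and it was well above background in 3 of 8 channels. The list of glycine uptake therefore came down to Slc6a9.

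Chat encodes choline acetyltransferase, which makes acetylcholine in starburst amacrine cells. Its levels were -3.19, -3.51, -3.49 and -2.87 (CTR1 to CTR4) and -3.18, -3.58, -3.34 and -3.02 (ONC1 to ONC4). The groups covered the same range, and CTR4 and ONC4, which share an array by label, were the highest of their groups. The means were -3.26 ± 0.30 and -3.28 ± 0.24 (SD, n = 4 each), a difference of -0.02 (SE 0.17), with an adjusted p of 0.974. The interval of the difference at 95% confidence ran from -0.40 to 0.37. Chat was the gene that depended most on the handling of the dyes: without loess the difference was 0.51, with an adjusted p of 0.0679 (0.0679 to 0.999995 over the alternatives).

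The Chat probe, the only one for this gene, lies at chr16:7913067-7913126 on the minus strand of rn4. It is given because the spot is dim, and capitals are used as above.
Chat probe A_64_P118273: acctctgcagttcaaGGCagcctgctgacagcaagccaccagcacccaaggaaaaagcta

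Of 8 genes listed for acetylcholine and starburst cells, 5 passed the filter, 3 higher and 2 lower in the channels labeled ONC, and 0 were called. Fezf1, a transcription factor of starburst cells, differed by 0.41 (SE 0.13) and Ache, which breaks acetylcholine down, by 0.29 (SE 0.11), each positive on 4 of 4 arrays. Without loess Fezf1 differed by 0.78. The choline transporter Slc5a7 differed by 0.18 (SE 0.27), and Sox2, a transcription factor, went the other way at -0.22 (SE 0.11). Slc18a3, the vesicular acetylcholine transporter, was left out for an outlier flag, Megf10 was too dim, and Megf11 was not on the array by that name. The median difference of the 5 genes was 0.18, but it was 0.31 without CTR2 and turned to -0.05 without CTR3 and to -0.07 with only CTR2, CTR4, ONC1 and ONC3. These 4 are the channels whose dye is the same by the labels and by the methods. In that setting the ONC side is ONC1 and ONC3 alone, which lay closest of all pairs and may not be separate retinas.

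Th encodes tyrosine hydroxylase, the first enzyme of dopamine synthesis, which in retina is found in a sparse set of amacrine cells. It was the steadiest of the 10 genes. The levels were 1.83, 2.001, 1.85 and 1.84 (CTR1 to CTR4) and 1.81, 1.80, 1.77 and 1.73 (ONC1 to ONC4). All channels labeled ONC were below those labeled CTR, CTR2 stood above the rest, and the gap between CTR1 and ONC1 was small. The difference was -0.10 (SE 0.08), or 1.07-fold, with an adjusted p of 0.536. Its SD over the 8 channels was 0.08, larger than that of 3.12% of all genes. Without CTR2 the difference was -0.06.

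Of 5 genes for dopamine synthesis and transport, 4 passed the filter and 0 were called. Gch1, which makes the cofactor of Th, differed by -0.15 (SE 0.15), and Slc18a2, which loads dopamine into vesicles, by 0.15 (SE 0.21). Ddc, the next enzyme of the pathway, differed by 0.14 (SE 0.12). Without loess Gch1 turned to 0.20 and Ddc was 0.33, and with the processed signals Ddc was 0.07. Slc6a3, the dopamine transporter, did not pass, with a foreground of 1.19 times its background in its dimmest channel and 0 channels well above background. The median difference was 0.02, with -0.03 from the processed signals and 0.20 without loess. As single channels were left out, it ran from -0.04 without CTR1 to 0.08 without CTR4.

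Calb2 encodes calretinin, a calcium-binding protein of AII and other amacrine cells that many RGCs hold as well. It varied most among the 10 genes. The levels were 3.97, 5.63, 4.67 and 4.67 (CTR1 to CTR4) and 5.01, 5.46, 5.67 and 4.42 (ONC1 to ONC4). CTR2, ONC2 and ONC3 were high, CTR1 and ONC4 were low, and the label groups overlapped. The means were 4.74 ± 0.68 and 5.14 ± 0.55 (SD, n = 4 each), a difference of 0.40 (SE 0.36), with an adjusted p of 0.605. It was 0.15 without CTR1, 0.23 without ONC3, 0.64 without ONC4 and 0.70 without CTR2. Without loess it was 0.18, and with only CTR2, CTR4, ONC1 and ONC3 it was 0.19.

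RGC markers varied with Calb2. Calb2 was highest in CTR2, ONC1, ONC2 and ONC3, and the median of the RGC markers was above 0 in the same 4 channels. The summed signal of the markers, in units of the channel median, was 15.4, 42.4, 17.7 and 23.1 (CTR1 to CTR4) and 49.4, 48.7, 50.03 and 18.5 (ONC1 to ONC4). Of 14 markers listed, 13 were on the array and 11 passed the filter. Stmn2 gave the brightest signal, which across probes is no measure of abundance, Pou4f3 and Isl2 did not pass the filter, and Pou4f1 was not on the array by that name. Of the 11, 10 were higher in the channels labeled ONC, 0 were called, and the median difference was 1.16. The differences ran from -0.07 in Gap43 and 0.16 in Stmn2 to 1.79 in Slc17a6 and 2.07 in Pou4f2. Their part in the level of Calb2 was not tested.

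**Figure D4:**
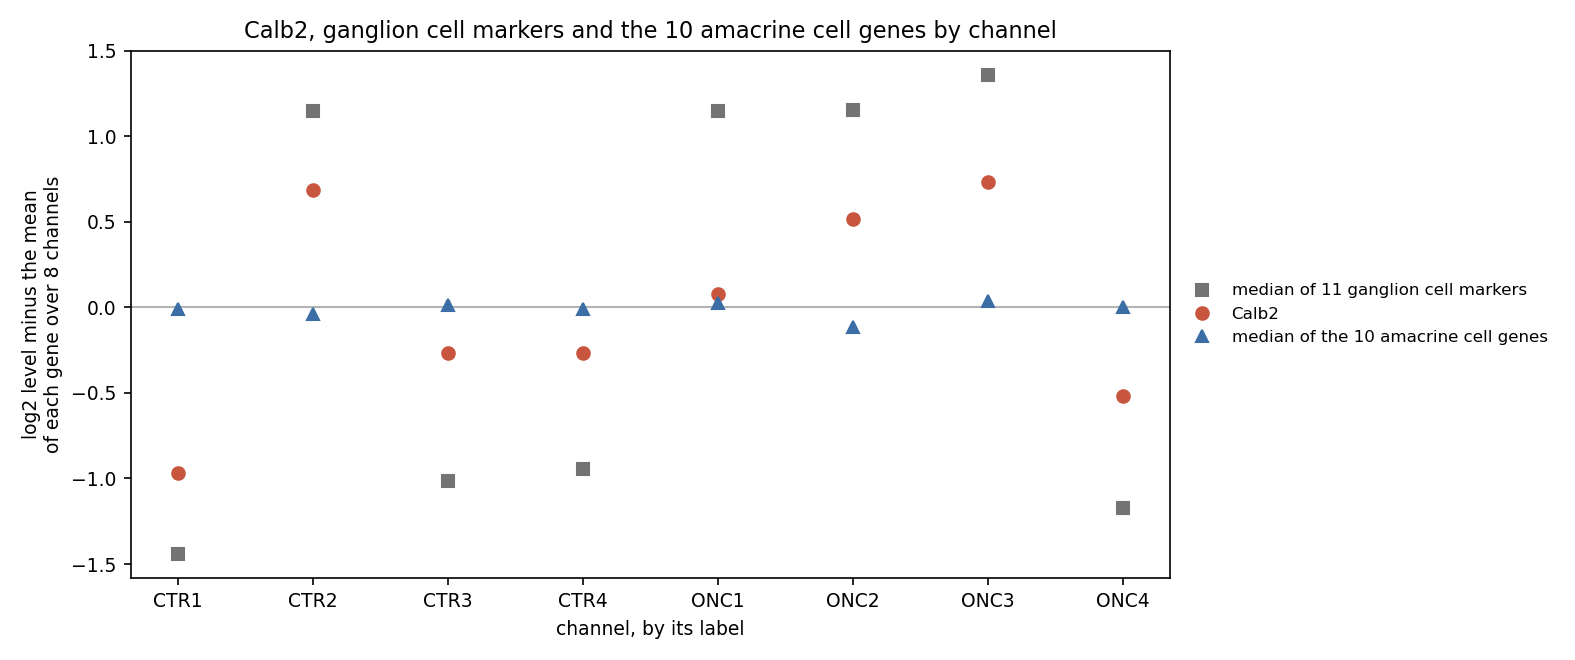
Log2 level minus the mean of each gene over 8 channels for Calb2 (circles), for the median of 11 RGC markers (squares) and for the median of the 10 amacrine cell genes (triangles), by channel label. Calb2 and the RGC markers are high in CTR2, ONC2 and ONC3, while the median of the 10 genes stays between -0.11 and 0.04.

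The other calcium-binding proteins on the list differed in size. Pvalb, which encodes parvalbumin, differed by 0.61 (SE 0.30) and Calb1, which encodes calbindin, by -0.01 (SE 0.10). The level of Pvalb was 4.12, 4.46, 4.43 and 4.50 in CTR2, ONC1, ONC2 and ONC3, where RGC markers were high too. It was 3.04 to 3.58 in the other channels. The study lists Pvalb among the genes lower after crush, the opposite sign, and a part of RGCs in its level was not tested. All 3 genes of the list passed the filter, 0 were called, and their median difference was 0.40, the value of Calb2 itself. Of 4 genes listed for AII amacrine cells, 3 passed and 0 were called: Dab1 differed by -0.02 (SE 0.07) and Prox1 by 0.01 (SE 0.23), and the connexin gene Gjd2 had a mean of -0.41 in both groups. Without loess Prox1 was 0.69 and Dab1 0.07. Nfia did not pass the filter. The median of the 3 was -0.000904, and it was -0.04 without ONC2, 0.07 without loess and 0.08 with only CTR2, CTR4, ONC1 and ONC3.

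Pax6, Tfap2a and Tfap2b encode transcription factors that guide amacrine cell development and stay on in the mature cells. The largest mean difference of the 10 genes was in Tfap2a, 1.49-fold, and Tfap2b, its close relative, differed by 1.05-fold. The rank of Tfap2a did not hold without CTR4, where it was 0.28 and Calb2 0.38 on the log2 scale. Nor did it hold with the processed signals, where Tfap2a was 0.54 and Slc6a9 -0.61.

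The levels of Tfap2a were 0.45, 0.37, 0.09 and -0.89 (CTR1 to CTR4) and 0.70, 0.78, 0.56 and 0.30 (ONC1 to ONC4). CTR4 was far lower than the other 7 channels, and ONC4 lay among the channels labeled CTR. The means were 0.01 ± 0.62 and 0.58 ± 0.21 (SD, n = 4 each). The difference was 0.58 (SE 0.27) and positive on 4 of 4 arrays, from 0.24 on the array of number 1 to 1.20 on that of number 4, with an adjusted p of 0.304. Without CTR4 it was 0.28, and without each other channel it was 0.51 to 0.73.

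Tfap2b differed little. Its levels were 4.29, 4.19, 4.51 and 4.33 (CTR1 to CTR4) and 4.33, 4.28, 4.44 and 4.53 (ONC1 to ONC4), over the same range in both groups. The difference was 0.06 (SE 0.10), with an adjusted p of 0.785 and an interval from -0.16 to 0.29. It was 0.02 without CTR2, 0.13 without CTR3, and turned to -0.09 without loess.

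The levels of Pax6 were 2.06, 1.73, 1.59 and 1.84 (CTR1 to CTR4) and 1.95, 2.03, 1.91 and 1.87 (ONC1 to ONC4). The channels labeled ONC lay within the range of those labeled CTR and were closer together. The means were 1.81 ± 0.20 and 1.94 ± 0.07 (SD, n = 4 each), a difference of 0.13 (SE 0.11), with an adjusted p of 0.561. It was 0.06 without CTR3, 0.22 without CTR1, and -0.01 when the software's own processed signals were used.

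Of 21 transcription factors listed for amacrine cells, 15 passed the filter, 13 of these were higher in the channels labeled ONC, and 0 were called. Their median difference was 0.25, beside -0.01 for all genes, and over the alternatives it ran from 0.15 without CTR4 to 0.33 with the processed signals. Without loess it was 0.19, beside 0.07 for all genes. Some of the 15 were dim, and 1 of them came down to 2.12 times its background, near the minimum of 2. Next to Tfap2a, the largest was Six6, an eye field and amacrine factor, at 0.56 (SE 0.10), with groups that did not overlap and an adjusted p of 0.0550. Neurod1, at 0.02 (SE 0.10) and -0.09 without loess, was the smallest. With the replicate block, 2 of the 15 passed, beside 7.69% of all genes, Six6 at an adjusted p of 0.0367 and Tfap2c, another AP-2 factor, at 0.0486 with a difference of -0.29 (SE 0.09). The latter was -0.09 without loess and -0.13 with the processed signals. Ptf1a, Foxn4, Neurod6 and Ebf3 were among those that did not pass the filter, and Prdm13 was not on the array by that name.

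**Figure D5:**
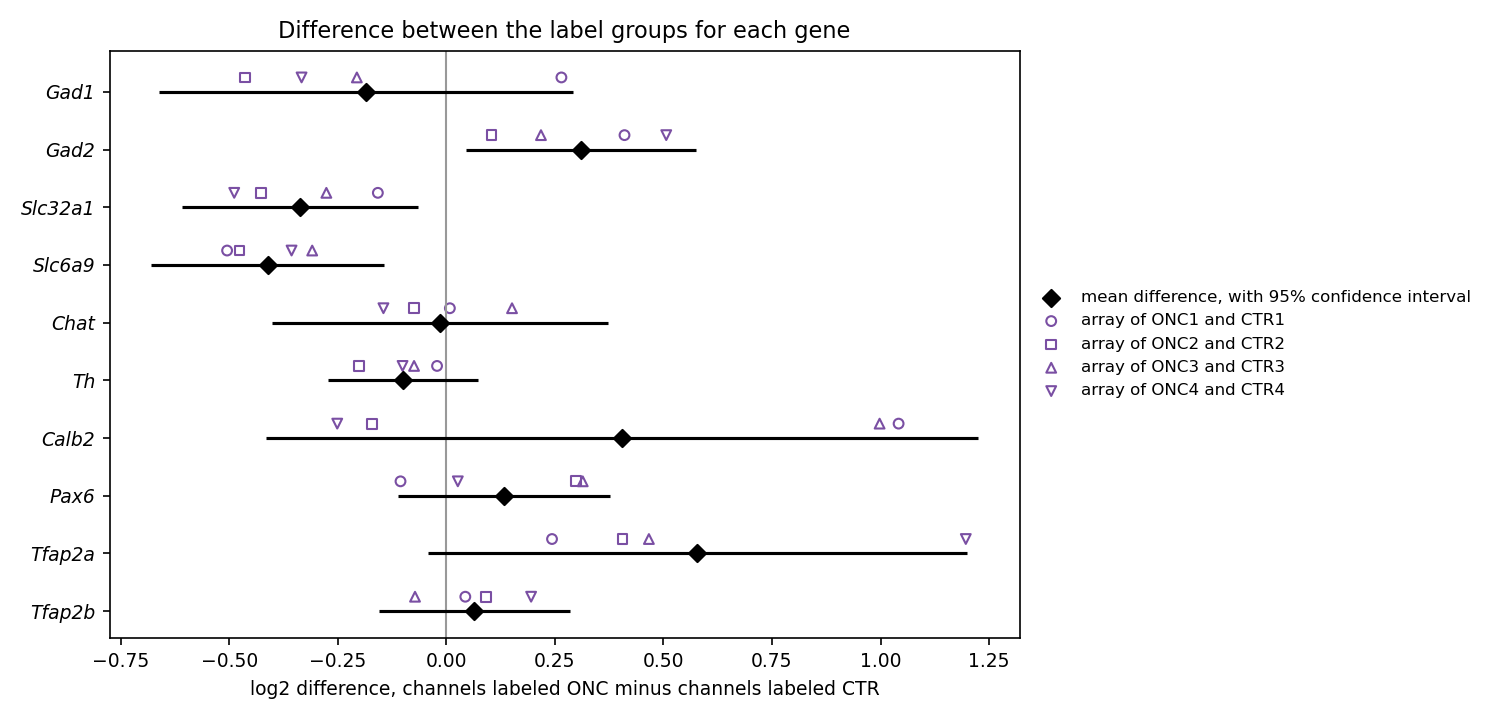
Log2 difference of each gene, channels labeled ONC minus channels labeled CTR (diamonds, with intervals at 95% confidence, n = 4 per group), and the difference on each of the 4 arrays (open symbols). On every array the open symbols of Slc32a1, Slc6a9 and Th lie below 0 and those of Gad2 and Tfap2a above it.

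The direction within arrays split the 10 genes into groups. Gad2 and Tfap2a were higher in the channel labeled ONC on all 4 arrays, as were 2970 of the 16307 genes, and Slc32a1, Slc6a9 and Th were lower on all 4, as were 3456 genes. On 3 arrays of 4, Pax6 and Tfap2b were higher and Gad1, by its dimmer probe, was lower. Chat and Calb2 were higher on 2 and lower on 2. The arrays of numbers 1 and 3 gave the 2 positive values of Calb2, 1.04 and 0.998, and those of numbers 2 and 4 gave -0.17 and -0.25.

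How far replicates spread also set the genes apart. The study describes spread by the relative expression variability (REV), a coefficient of variation in percent taken from its confidence interval, and by the gene expression stability (GES), the percentile of a gene counted from the most variable. Th was steady in both groups, with a REV of 12.5% in the channels labeled CTR and 4.97% in those labeled ONC, and a GES of 86.6 and 98.3. As single channels were left out, the GES of Th in CTR ran from 68.7 without CTR4 to 99.9 without CTR2. Calb2 was among the most variable genes of the array, with a REV of 106.2% and 75.1% and a GES of 0.748 and 3.12. The GES of Calb2 was 7.41 in CTR without CTR2 and 8.95 in ONC without ONC4. The median REV of all genes was 25.1% and 21.7%.

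From CTR to ONC, Pax6 had a REV of 29.7% and 10.4%, Tfap2a of 75.6% and 29.8%, and Gad2 of 17.7% and 28.8%. Single channels carry much of this. The GES of Tfap2a in CTR was 2.63, and 36.3 without CTR4, beside 32.5 in ONC. That of Gad2 in ONC was 34.2, and 78.4 without ONC2, beside 71.3 in CTR. The differences in REV between groups were not tested.

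The other 5 genes lay between these. Slc6a9 had a REV of 14.5% and 19.08% and Tfap2b of 20.5% and 16.5%, both under the median of all genes in each group. At the same spread, the REV formula gives lower values to genes with more spots, and Slc6a9 had 2 where the others of the 10 had 1. Slc32a1 had 31.2% and 19.97%, and the dim spots of Gad1 and Chat gave 54.2% and 44.7%, and 46.5% and 35.3%. Without CTR4 the GES in CTR went from 35.6 to 65.0 for Slc32a1 and from 13.9 to 35.6 for Chat, and without ONC2 that of Gad1 in ONC went from 14.5 to 50.2.

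Some of the 10 genes varied together from channel to channel. Over the 8 channels, Slc32a1 and Slc6a9 had a Pearson r of 0.91, Slc32a1 and Gad1 of 0.83, and Slc32a1 and Tfap2a of -0.94. Gad1 was read here by its dimmer probe, A_44_P243102, alone. In Slc32a1, Slc6a9 and this probe of Gad1, ONC2 was the lowest channel and CTR4 the highest. In Tfap2a, CTR4 was the lowest and ONC2 the highest. The flagged Gad1 probe, A_64_P084971, was instead lowest in CTR1 (4.09) and highest in ONC4 (4.94) with flagged spots kept. Gad2 followed Tfap2b, with an r of 0.74, and went against Th, with -0.70. These are descriptions over 8 points that share 4 arrays, and high r were common among all genes: 396 genes had an r over 0.9 with Slc32a1, and 10 with Th.

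The genes whose levels most resembled each of the 10 over the 8 channels were named by a rule, the 3 with the highest r. For Calb2 they were Tmem64, the RGC marker Rbpms and the neuropeptide gene Cartpt, with r of 0.97 or 0.98. For Tfap2a they were the carbonic anhydrase gene Car14, an unnamed gene and the Polycomb gene Pcgf1, with r of 0.97 or 0.98. For Slc6a9 they were Commd7, an unnamed gene and Grina, and for Slc32a1 an unnamed probe, Pigq and Traf2, all with r of 0.97 or 0.98. For Gad1, by its dimmer probe, they were Usp5, the lipase gene Mgll and an unnamed gene, with r of 0.98. For Gad2 they were Palb2, the Mediator gene Med18 and an unnamed transcript, with r of 0.98 or 0.99. For Chat they were the filamin gene Flna, Bcl6b and an unnamed transcript, with r of 0.99. For Th they were Adam1a, Tiam1 and Chtf18, with r from 0.93 to 0.97, and for Pax6 an unnamed transcript, the kinesin gene Kif2a and Coq6, with r of 0.96 or 0.97. For Tfap2b none of the 3 has a gene symbol in the files.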

How the data were processed

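The 4 two-color Agilent arrays of whole rat retina were analyzed, with the groups taken from the labels. The authors deposited the intensity of each spot and channel as the scanner software wrote it, per the file headers from Feature Extraction 12.0.3.1 (11.1.19.1 in the submitters' processing notes): mean foreground, median local background and a processed signal. Of 42877 spots per array that are not controls, those with an outlier flag (non-uniform feature, population outlier or non-uniform background) or, in at least 1 of the 8 channels, a foreground below 2 times background were left out. This kept 27371 spots of 18599 probes for 16307 genes. Background was subtracted, arrays were normalized by loess, channels were centered on their medians, and log2 values were averaged over spots and then probes.

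The label groups, 4 channels each, were tested by limma 3.58.1 (R 4.3.3) through lmFit followed by eBayes. P values are two-sided and were adjusted by Benjamini-Hochberg across the genes, with 0.05 as threshold. No block was used, since the test in the methods is unpaired. That test goes with the layout of the methods, in which no array holds both groups. The fit with the replicate block, given beside it, is the one that uses the pairing of the labels. Replicate numbers pair the channels because the labels tie a number to an array. Deviations from group means correlated within numbers 1 to 4 with r of 0.149, 0.549, 0.401 and 0.487 over the genes, and across numbers with r of at most 0.171. Channels ONC1 and ONC3 lay close, with a scaled median absolute deviation of 0.112 beside 0.228 to 0.398 for all other pairs. Over 870 probes spotted at least 8 times, the variance between probes was 1.95 times that between spots, beside 3.79 to 94.0 in other pairs. This cannot tell separate retinas from 1 RNA hybridized to 2 arrays. They were kept as 2 samples because the labels give 2, and an alternative that counts them as 1 was added after seeing the data.

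The 10 genes and all lists were chosen with earlier results of these data known. Genes named from a list are those called or, with none called, the 2 largest and the 2 smallest differences in size, and those that did not pass by name. Single results for a few list genes are not reported here. For each of the 10 genes, the 3 most correlated genes are named. Lists cover GABA, glycine uptake, acetylcholine and starburst genes, dopamine, calcium-binding proteins, AII cells, amacrine transcription factors, and markers of ganglion, horizontal, bipolar, photoreceptor, Muller glia, microglia and pigment epithelium cells. REV, GES and the fold threshold followed the equations of the study, but folds are those of log2 means, not of linear means. Probe coordinates are those of the array design (rn4). The fit was tested on simulated data. Alternatives changed the block, loess, signal, background, filters, probe rule, channels and test. Figures were drawn with matplotlib 3.10.9 in Python 3.11.15.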

Additional observations from a re-analysis of the deposited data

Results flagged for a closer look

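Th in the channel labeled CTR2 stood apart from the other 3 channels labeled CTR. Its log2 level was 2.001, and the others lay between 1.83 and 1.85. The gap to the nearest channel was 0.913 of the range of the group, above the critical value of Dixon's test for 4 samples. This was 1 of 20 groups of channels examined (10 genes, 2 label groups), and chance alone flags about 1 in 20.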

How the results depend on the processing

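Of the 10 genes, 6 (Gad2, Slc6a9, Slc32a1, Th, Calb2 and Tfap2a) kept the sign of their difference in all 18 alternatives, and of 180 differences 168 kept both sign and side of the threshold. None of 10 passed in the main setting, 1 passed with the replicate block (Slc6a9), 2 without loess (Slc6a9 and Slc32a1), and the block changed no other call among the 10. By the methods' t-test, 3 of the 10 had p under 0.05, Gad2 only just, beside 2690 of all 16307 genes. The cause of each change was not tested.

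Signs turned as follows. Without loess, Gad1 was 0.10, Chat 0.51 and Tfap2b -0.0902. With flagged spots kept, an alternative added after seeing the data, Gad1 was 0.0735. With the processed signals, Pax6 was -0.0143. Chat was -0.10 to 0.12 without single channels, and above 0 without CTR1, CTR4, ONC2 or ONC3.

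The count of 81 genes became 1254 with the replicate block (502 higher and 752 lower), 3194 without loess (71.0% higher), 412 with Aquantile (42.7% higher), 146 with spots well above background in all channels, 124 with the brightest probe, 79 with flagged spots kept, and 21 with the processed signals (57.1% higher). Limma called 0 genes with normexp and no filter on dim spots, with only CTR2, CTR4, ONC1 and ONC3, and with ONC1 and ONC3 averaged (1957, 1961 and 2176 at an unadjusted p under 0.05). Without single channels the count was 0 to 38, the 38 without ONC2 sharing 23 with the main calls, beside 2085 to 3252 at an unadjusted p under 0.05. By the methods' t-test it was 2690, 0 after Benjamini-Hochberg, and 504 when joined to the fold threshold. Of 252 list medians 18 moved by more than the spread between channels. Signal over background limits Chat and Gad1 most, at 2.79 and 3.75 times in their dimmest channels.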

Other observations

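Markers of the other retinal cell types give the setting for the 10 amacrine cell genes, and limma called 0 of them between the label groups. At an unadjusted p under 0.05, 0 of 5 horizontal, 3 of 9 bipolar, 2 of 10 photoreceptor, 2 of 7 Muller glia, 3 of 7 microglia and 1 of 4 pigment epithelium markers stood out, beside 18.6% of all genes. The median difference was 0.18 for bipolar cells (0.27 without ONC2 and 0.08 with only the brightest probe of each gene). Vsx1 and Prkca were at 0.36 and Scgn at 0.04 (-0.00887 without loess). The median was -0.08 for horizontal cells (0.00374 without CTR4 and 0.05 with only CTR2, CTR4, ONC1 and ONC3), with Onecut2 at 0.17 and Lhx1 at -0.16. Onecut2 was 0.48 and Lhx1 -0.10 without loess, and they were 0.31 and -0.07 with the processed signals.

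Photoreceptor markers had a median difference of -0.26 (-0.38 without loess and -0.11 with only CTR2, CTR4, ONC1 and ONC3), with Sag at -0.39, Arr3 at -0.04 and Pde6a at 0.07 (-0.16 without loess). Rcvrn was left out for an outlier flag. Muller glia markers had a median of -0.23 (-0.46 without loess and -0.09 without CTR4), with Gfap, which glia raise under stress, at -1.15, Glul at 0.58, Rlbp1 at 0.02 and Apoe at -0.10 (-0.04 and -0.48 without loess). Kcnj10 did not pass the filter. With the replicate block, 2 of 10 photoreceptor and 2 of 7 Muller glia markers passed, beside 7.69% of all genes. Crx, Slc1a3 and Vim were among these, each lower in the channels labeled ONC on 4 of 4 arrays, as were 3456 of the 16307 genes.

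Microglia markers had a median of -0.35 (-0.22 without loess), with P2ry12 at -0.69 and Aif1 at -0.59. Itgam was at -0.29 and Csf1r at -0.21 (0.00686 and 0.05 without loess), while Cx3cr1 went the other way at 0.39. Pigment epithelium markers had a median of 0.19, which ran from 0.06 without CTR3 to 0.53 without ONC2 as single channels were left out, with Rpe65 at 0.79, Lrat at 0.27, Mitf at -0.12 and Ttr at 0.11 (0.08 and -0.16 without loess). Best1 did not pass the filter, and Rdh5 was not on the array by that name. The pigment epithelium lies behind the neural retina, and the median of its markers ran from -0.62 in ONC2 to 0.49 in ONC1 over the 8 channels.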
